A study of Homo sapiens with 6 samples.

Results

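The genes described here encode the proteases of the mitochondrial inner membrane and matrix, OPA1, a substrate of such proteases, and the folding machinery of the matrix. They are 10 of the 20289 genes of the deposited table, taken by gene symbol: OMA1, YME1L1, OPA1, AFG3L2, SPG7, LONP1, CLPP, HSPD1, HSPE1 and HSPA9. All 10 passed the filter on low counts. The set was chosen by function with the fold changes between the groups below already known, that of OMA1 among them, so their differences between the groups are a description and support no claim about the group of genes.

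RNA was sequenced from SW480, a human cell line that was established from a colon adenocarcinoma. One group, MUCP1-FLAG, is labelled with overexpression of FLAG-tagged MUCP1 as its genotype and treatment (3 libraries). The other, LV-NC, is labelled as wild type with the control LV-NC (3 libraries). The culture medium of both was L-15, to which fetal bovine serum and antibiotics were added. The labels call the libraries biological replicates and name no clone, passage or batch, so the errors below measure the spread between these libraries. No gene of the table carries the name MUCP1, and the overexpression was not checked here.

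Library totals ran from 17333329 to 23282604 counts, and 12920 genes were tested. All 7 epithelial markers examined had more than 1 FPKM in every library, with a summed level of 4183 to 4312 FPKM in MUCP1-FLAG and 3936 to 4309 FPKM in LV-NC. They differed between the groups: CDH1 (log2 fold change −1.06), VIL1 (−0.40) and EPCAM (−0.33) fell, KRT19 (0.17) rose, and KRT8, KRT18 and CDX2 were not called (edgeR adjusted p 3.26e-09, 0.00731, 3.51e-05 and 0.0322 for the 4 called). Their part in the results below was not tested. All 8 markers of blood, endothelium and fibroblasts stayed below 1 FPKM, and PTPRC, PECAM1, COL1A2 and COL3A1 had no count. The summed level of these 8 markers was 0.69 to 0.76 FPKM in MUCP1-FLAG and 0.56 to 0.63 FPKM in LV-NC.

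Mitochondria import most of their proteins unfolded and carry their own machines to fold and destroy them. In the matrix, mortalin (HSPA9) pulls chains in and hands them to the chaperonin barrel built of HSPD1 and capped by HSPE1, and LONP1 and CLPP degrade damaged proteins. In the inner membrane, YME1L1 and the complexes of AFG3L2 and SPG7 use ATP to extract and cleave proteins, while OMA1 is a metalloprotease, nearly silent in healthy mitochondria, that is activated when the membrane potential falls. OMA1 and YME1L1 both cut OPA1, the dynamin-like GTPase that fuses inner membranes and shapes cristae, and cleavage by OMA1 stops fusion.

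OMA1 was the one gene of the 10 called lower in MUCP1-FLAG cells, by 34.9% on the count scale, and no other gene of the 10 was called in either direction. In the fit across all genes 7.71% of tested genes were called lower and 8.35% higher, in all 16.1%, at an edgeR adjusted p under 0.05. No reading is drawn from the count of 1 in 10, because the comparison was known when the genes were chosen. With the low-count filter and all 6 libraries none was called higher by edgeR, DESeq2 or limma. At an unadjusted p under 0.05 edgeR had 1 higher, LONP1, and 1 lower, OMA1. The share of all tested genes at that unadjusted threshold was not counted, and no reading is drawn from these 2. Over the 10 genes the median log2 fold change was −0.01 and the median of its absolute size 0.03, beside 0.11 for the absolute size over all tested genes. These medians were not matched for level. All of the 10 but SPG7 and OMA1 lay above at least 83.6% of tested genes in FPKM. The 9 genes other than OMA1 lay between −0.08 and 0.13, and their 95% intervals between −0.26 and 0.24. The CPM values of the 2 groups lay apart for OMA1 alone among the 10, and for 33.1% of all tested genes, 16.6% with MUCP1-FLAG higher and 16.4% with MUCP1-FLAG lower.

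**Figure D1:**
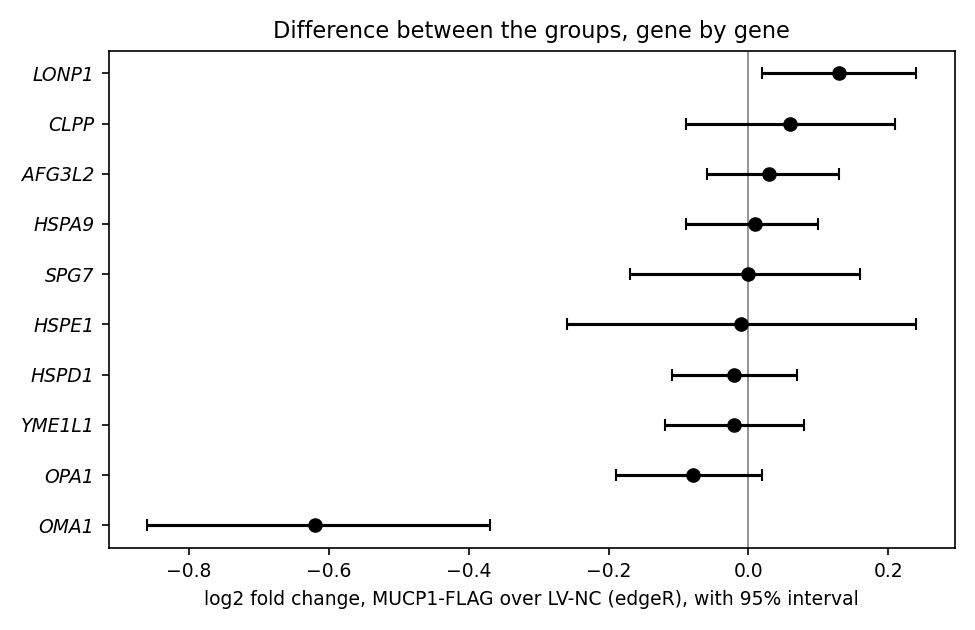
Log2 fold change of MUCP1-FLAG over LV-NC for each of the 10 genes (points, x axis) with its 95% interval (bars), from the edgeR fit across all genes, 3 libraries per group. OMA1 lies at −0.62, with an interval of −0.86 to −0.37, and the other 9 genes lie between −0.08 and 0.13.

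OMA1 (ENSG00000162600) lies on chromosome 1 of GRCh38 at 58415384 to 58546802 on the minus strand in GENCODE 29. Its count, scaled to library size with TMM factors (CPM), was 6.55, 6.79 and 5.85 in the MUCP1-FLAG libraries and 9.28, 9.97 and 10.3 in the LV-NC libraries. All 3 MUCP1-FLAG libraries were below all 3 LV-NC libraries. OMA1 averaged 6.4 ± 0.491 CPM in MUCP1-FLAG and 9.84 ± 0.502 CPM in LV-NC (SD, n = 3 each), a log2 fold change of −0.62 ± 0.12 (SE). The absolute change was larger than that of 95.5% of tested genes. The values rest on few reads, namely 113, 156 and 114 counts in MUCP1-FLAG against 178, 215 and 196 in LV-NC, and counting alone gives each an error of 6.82% to 9.41%.

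The size of the OMA1 difference depended on which deposited value was read. In FPKM, which the authors scaled for length as well as for depth, OMA1 had 5.11, 3.96 and 5.74 in MUCP1-FLAG and 5.96, 6.27 and 6.78 in LV-NC. The groups again did not overlap, but MUCP1-FLAG replicate 3 was the lowest of its group in CPM and the highest in FPKM. The log2 fold change in the authors' deposited table, which equals the ratio of the mean FPKM of the groups, was −0.36 for OMA1. With limma it was −0.32 on log2(FPKM + 1) and −0.37 on log2(FPKM + 0.1), and OMA1 was not called on either scale. If FPKM used a fixed length per gene, the length that a count and its FPKM imply together would be the same in each library. Whether it did is not stated. For OMA1 the implied length was 1276, 1692 and 1018 bases in MUCP1-FLAG and 1561, 1592 and 1532 bases in LV-NC. Its coefficient of variation of 17.4% exceeded that of 98.5% of the 10231 genes that had over 100 counts throughout, whose median was 2.12%. The part of this spread in the OMA1 difference was not tested.

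**Figure D2:**
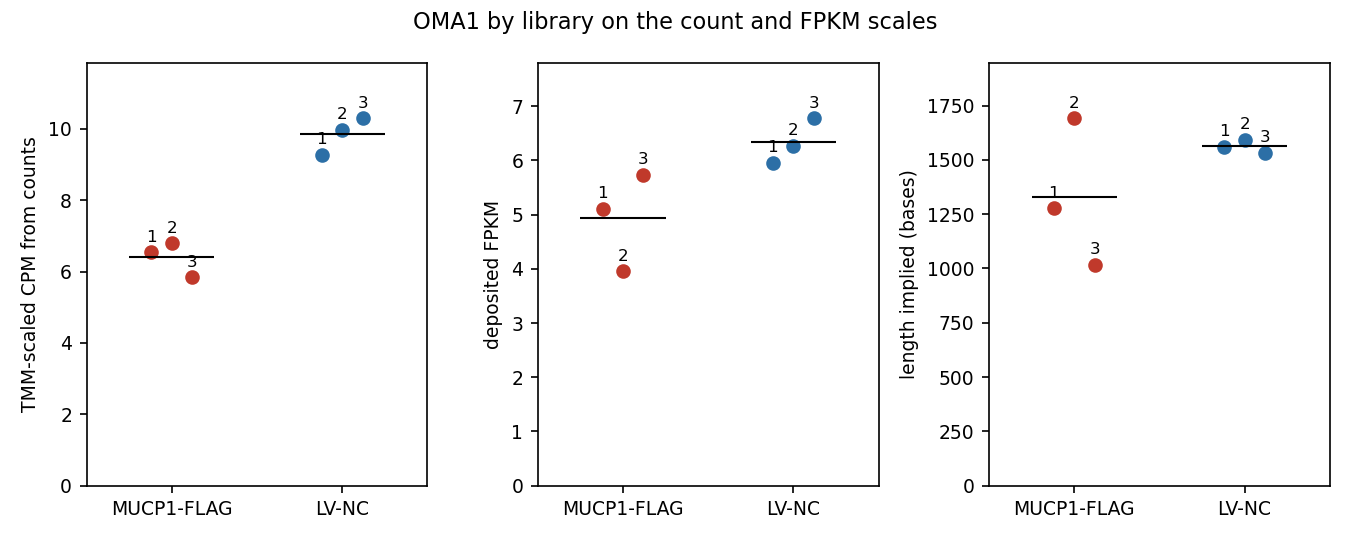
OMA1 in each library (points, numbered by replicate; lines, group means) as TMM-scaled CPM, as deposited FPKM and as the length in bases that count and FPKM imply. MUCP1-FLAG lies below LV-NC in the first 2 panels, at 5.85 to 6.79 against 9.28 to 10.3 CPM and at 3.96 to 5.74 against 5.96 to 6.78 FPKM, and the implied length spreads from 1018 to 1692 bases in MUCP1-FLAG.

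The start of OMA1 is shared with a longer gene. DAB1, which encodes a reelin adaptor of neurons, runs through OMA1 on the same strand, shares 257 exon bases with it, 6.91% of the exon bases of OMA1, and has the same promoter window in RefSeq. DAB1 is listed at 0 in all 6 libraries. The stretch just upstream of every annotated OMA1 exon is shown because it belongs to both genes and precedes the transcript that differed. It covers chr1:58546803-58546976 on the minus strand (RefSeq, GRCh38.p14) and has a G and C content of 64.9%.
OMA1 upstream: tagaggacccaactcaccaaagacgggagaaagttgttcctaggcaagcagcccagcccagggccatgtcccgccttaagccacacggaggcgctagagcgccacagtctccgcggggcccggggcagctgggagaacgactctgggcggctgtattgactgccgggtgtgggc

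YME1L1, the ATP-driven protease of the inner membrane that processes OPA1 in unstressed cells, had 209, 199 and 209 CPM in MUCP1-FLAG and 198, 209 and 216 CPM in LV-NC. The groups overlapped throughout, and the log2 fold change was −0.02 ± 0.05, with an interval of −0.12 to 0.08. The FPKM of YME1L1 was 12.1, 14.6 and 10.1 times that of OMA1 in MUCP1-FLAG, against 9.30, 9.89 and 9.69 times in LV-NC. The ratio of these 2 OPA1-cutting proteases therefore averaged 12.3 ± 2.26 in MUCP1-FLAG and 9.63 ± 0.298 in LV-NC (SD, n = 3 each), with its spread in MUCP1-FLAG set by OMA1. On the CPM scale, which is not corrected for length, the ratio was 29.4 to 35.7 in MUCP1-FLAG and 21.0 to 21.4 in LV-NC.

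OPA1, their common substrate, had 287, 271 and 267 CPM in MUCP1-FLAG and 275, 287 and 312 CPM in LV-NC. The highest MUCP1-FLAG library equalled the middle LV-NC library, and the log2 fold change was −0.08 ± 0.05, with an interval of −0.19 to 0.02. Cleavage of OPA1 happens on the protein and is not visible in these counts. In FPKM, OPA1 stood at 0.967 to 0.987 of the YME1L1 level in MUCP1-FLAG and 0.994 to 1.05 in LV-NC, so that the ratio parted the groups by a margin smaller than the spread within LV-NC.

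AFG3L2 and SPG7 form the protease complexes that face the matrix, and inherited defects of either cause ataxia or spastic paraplegia. AFG3L2 had 193, 204 and 201 CPM in MUCP1-FLAG and 199, 195 and 191 CPM in LV-NC, with a log2 fold change of 0.03 ± 0.05. SPG7 had 27.4, 25.9 and 28.8 CPM in MUCP1-FLAG and 29.6, 27.3 and 25.2 CPM in LV-NC, with a log2 fold change of −0.00 ± 0.08 and an interval of −0.17 to 0.16. Per length AFG3L2 exceeded SPG7 in all libraries, 6.15 ± 0.165 times in MUCP1-FLAG and 6.19 ± 0.915 times in LV-NC by FPKM (SD, n = 3 each). Of the exon bases of AFG3L2, 12.6% also belong to TUBB6 on the opposite strand, and 6.04% of those of YME1L1 belong to MASTL. Whether reads were counted by strand is not stated in the labels, and reads of such stretches cannot be assigned with certainty.

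LONP1, the ATP-dependent protease that removes oxidised matrix proteins, came closest to a rise among the other 9 genes. It had 265, 269 and 262 CPM in MUCP1-FLAG and 262, 241 and 222 CPM in LV-NC. The MUCP1-FLAG libraries agreed within a coefficient of variation of 1.31%, while LV-NC varied by 8.22% and its replicate 1 reached the lowest MUCP1-FLAG value. The log2 fold change of LONP1 was 0.13 ± 0.05, with an interval of 0.02 to 0.24. It did not pass the threshold over all genes, but did so without LV-NC replicate 1, at 0.19, and without the filter on low counts, at 0.14. CLPP, the barrel-shaped peptidase that works with the unfoldase CLPX, had 38.6, 43.4 and 39.1 CPM in MUCP1-FLAG and 40.3, 40.6 and 35.7 CPM in LV-NC, with an interval of −0.09 to 0.21 on the log2 scale.

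The matrix chaperones were the most abundant of the 10 and differed little between the groups. HSPD1, the subunit of the chaperonin barrel, had 1539, 1544 and 1502 CPM in MUCP1-FLAG and 1485, 1563 and 1606 CPM in LV-NC. Its log2 fold change was −0.02 ± 0.04, and its interval of −0.11 to 0.07 was among the narrowest of the 10. HSPA9, mortalin, had 1075, 1053 and 1004 CPM in MUCP1-FLAG and 1016, 1053 and 1051 CPM in LV-NC, with a log2 fold change of 0.01 ± 0.04. In neither gene did the libraries of the groups separate.

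HSPE1, the lid of the chaperonin, varied most within a group after scaling. It had 89.0, 115 and 93.0 CPM in MUCP1-FLAG and 88.3, 107 and 105 CPM in LV-NC, with a log2 fold change of −0.01 ± 0.11. The highest value of each group came from replicate 2, the deepest library of that group, and the part of depth in this was not tested. Its coefficient of variation was 14.2% in MUCP1-FLAG and 10.3% in LV-NC, against 1.49% and 3.97% for HSPD1. HSPE1 also shares 9.71% of its exon bases with the read-through gene HSPE1-MOB4, which was listed at 0, 11 and 23 counts in MUCP1-FLAG and 0, 20 and 51 counts in LV-NC. GENCODE 29 names 26 pseudogenes of HSPE1 and 17 of HSPD1, so the counts of both are uncertain.

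HSPD1 and HSPE1 lie head to head on chromosome 2, and HSPD1 is a known target of the heat shock factor HSF1, which binds alternating GAA and TTC units. RefSeq promoter windows, 250 bases before to 50 after a start site, were searched for 3 such units in a row, spelled GAANNTTCNNGAA or TTCNNGAANNTTC, each the reverse complement of the other. Of 34943 distinct promoter windows in RefSeq, 0.489% held one. Among the 8 of the 10 genes with a window the pattern was found in that of HSPD1 alone, and not in the windows of HSPE1 or HSPA9. It was found in 4 of the 18 cytosolic chaperones with a window. These are counts of genes, some with more than 1 window, whereas the 0.489% is a share of windows. The share of all genes was not counted. The first match from the 5′ end of each gene's window is shown, 5′ to 3′ on the strand of the gene with the units in capitals (GRCh38.p14), so that the HSPD1 match can be read beside the 4 cytosolic ones. The HSPD1 stretch holds 2 overlapping matches, and the windows of HSPA8 and HSP90AB1 each hold a second match that is not printed. HSPD1 and HSP90AA1 have 2 windows each and HSP90AB1 has 3, of which 1 per gene holds the pattern. For HSPD1 the stretch covers chr2:197500063-197500090 on the minus strand, inside the annotated span of HSPE1, although the searched HSPE1 window held no match. The others lie at chr11:123062349-123062371 (minus, HSPA8), chr14:102087115-102087137 (minus, HSP90AA1), chr6:44247773-44247795 (plus, HSP90AB1) and chr9:33025271-33025293 (plus, DNAJA1).
HSPD1: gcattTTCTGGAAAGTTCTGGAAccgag
HSPA8: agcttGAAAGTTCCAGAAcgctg
HSP90AA1: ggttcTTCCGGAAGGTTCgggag
HSP90AB1: gcaggTTCTGGAAGATTCatggg
DNAJA1: gggcgGAACTTTCCAGAAcgctc
None of these 5 genes was called by edgeR, and their log2 fold changes ran from −0.02 to 0.13. The highest was that of HSPA8, the constitutive cytosolic chaperone of the same family as mortalin, at 0.13 ± 0.04 (edgeR adjusted p 0.0512), and HSP90AB1 had 0.01 ± 0.04 (edgeR adjusted p 0.886). HSF1 itself had 54.9 ± 2.71 CPM in MUCP1-FLAG and 54.6 ± 4.70 CPM in LV-NC (SD, n = 3 each).

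Levels can be compared between genes in FPKM. HSPD1 was the most abundant, at 682 ± 10.1 FPKM in MUCP1-FLAG and 699 ± 31.2 FPKM in LV-NC (SD, n = 3 each). HSPA9 followed with 367 ± 14.0 FPKM in MUCP1-FLAG and 367 ± 5.03 FPKM in LV-NC, then HSPE1 with 177 ± 24.0 and LONP1 with 90.2 ± 0.658 FPKM in MUCP1-FLAG. Each of these lay apart from the next lower gene over all 6 libraries. AFG3L2, YME1L1 and OPA1 lay at 55.4 to 67.4 FPKM over all libraries with overlapping ranges, and their order cannot be told. CLPP (37.7 to 45.6 FPKM), SPG7 (8.63 to 11.9 FPKM) and OMA1 (3.96 to 6.78 FPKM) followed, each apart from its neighbours. HSPD1 stood 138-fold above OMA1 in mean FPKM in MUCP1-FLAG and 110.3-fold in LV-NC. OMA1 was thus the scarcest transcript of the 10 in every library, above 34.4% of all tested genes.

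**Figure D3:**
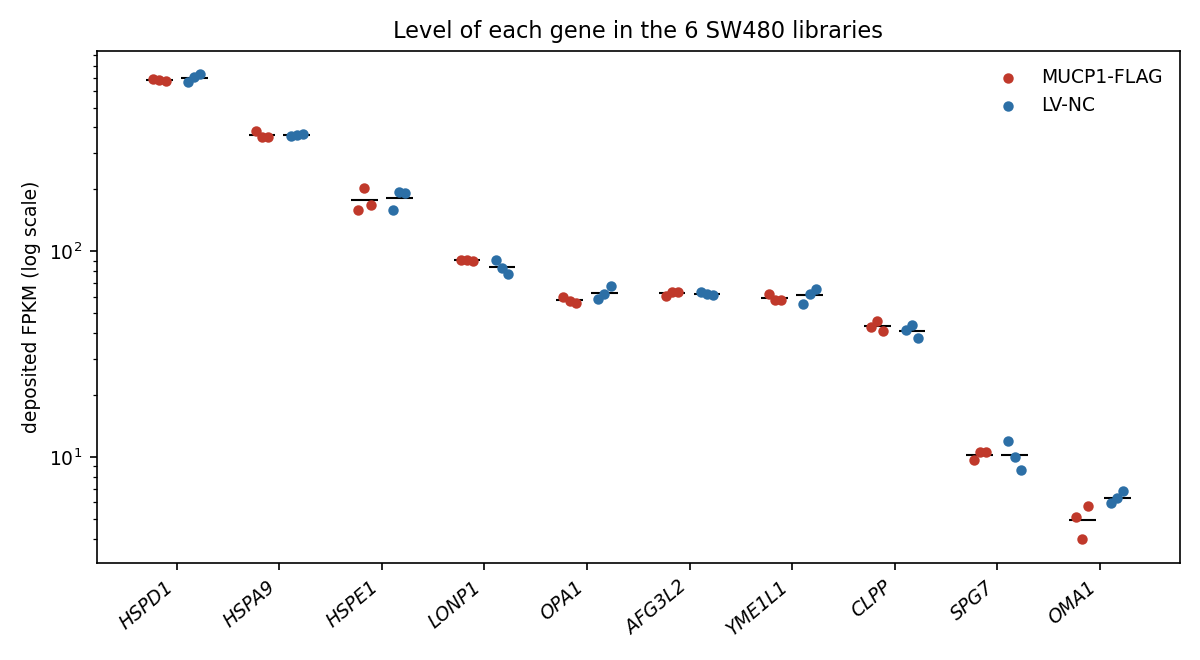
Deposited FPKM (log scale) of the 10 genes in each of the 6 libraries (points; MUCP1-FLAG to the left of LV-NC for each gene; lines, group means). HSPD1 lies at 666 to 728 FPKM and OMA1 at 3.96 to 6.78 FPKM, and OMA1 is the gene whose groups lie apart.

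The annotation columns of the deposited table put all 10 genes in the mitochondrion, 6 of them in the inner membrane and 5 in the matrix. OMA1, YME1L1, AFG3L2 and SPG7 carry the term metalloendopeptidase activity, and of these 4 OMA1 is the one without the term ATP binding.

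The genes whose log2 CPM followed OMA1 most closely over the 6 libraries were PARD6B, a cell polarity protein (Pearson's r 0.999), ERRFI1, a feedback inhibitor of the EGF receptor (0.996), and TMTC2 (0.994). PARD6B had 26.2, 26.9 and 24.4 CPM in MUCP1-FLAG and 32.1, 34.3 and 34.7 CPM in LV-NC. These correlations are over 6 libraries in 2 groups, and of the 9396 genes compared 477 had an r over 0.9 with OMA1. They were taken on CPM only, and the order of the MUCP1-FLAG libraries for OMA1 differed in FPKM. Counting errors of 6.82% to 9.41% for OMA1 stand beside coefficients of variation of 7.68% in MUCP1-FLAG and 5.11% in LV-NC, so the ranking of the closest genes is uncertain. Among the other 9 genes r with OMA1 ran from −0.752 for LONP1 to 0.664 for OPA1.

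Genes of the same pathways outside the 10 moved little. Of 75 tested genes in 6 lists, covering inner membrane and matrix proteases, co-chaperones, fusion and cristae, stress relay and import, 5 rose and none fell in MUCP1-FLAG, which is 6.67% called beside 16.1% of all tested genes. Their median log2 fold change was 0.04, against −0.00 over all tested genes, and 50 of the 75 were above 0. At an unadjusted p under 0.05 edgeR had 13 higher and 3 lower. The share of all tested genes at this unadjusted threshold was not counted, so no reading is drawn from these counts or from those per list below. DESeq2 called 4 higher and none lower, beside 920 higher and 822 lower of the 12920 tested genes. With limma on either FPKM scale 1 was higher and none lower, beside 514 or 516 higher and 544 or 549 lower of all tested genes.

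Among 10 inner membrane proteases and scaffolds, 2 rose, 20.0% called beside 16.1% of all tested genes. PARL, the rhomboid protease that cuts PINK1 and PGAM5, had 73.7, 75.5 and 70.6 CPM in MUCP1-FLAG and 64.6, 64.1 and 66.1 CPM in LV-NC, and its log2 level rose by 0.18 ± 0.06 (edgeR adjusted p 0.0350). PHB, the prohibitin that with PHB2 forms a ring scaffold around the AFG3L2 complexes, rose by 0.15 ± 0.05 (edgeR adjusted p 0.0403), to 233 ± 7.69 CPM in MUCP1-FLAG against 210.1 ± 11.2 CPM in LV-NC (SD, n = 3 each). Its partner PHB2 had 0.03 ± 0.05 (edgeR adjusted p 0.702). Over the 15 settings tried, PARL and PHB were each called in 7. The list's median was −0.01.

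None of 11 other matrix and intermembrane space proteases and none of 12 co-chaperones and folding factors was called by edgeR, with medians of 0.02 and 0.01. At an unadjusted p under 0.05, 1 protease was lower, and 1 co-chaperone was higher and 1 lower. METAP1D, a mitochondrial methionine aminopeptidase, had the smallest p of the proteases, at −0.28 ± 0.13 (edgeR adjusted p 0.138), and CLPX, the partner of CLPP, had 0.05 ± 0.05. CLPB, a disaggregase of the intermembrane space, had −0.18 ± 0.06 (edgeR adjusted p 0.0670). TRAP1, the Hsp90 relative of mitochondria, had 186 ± 5.03 CPM in MUCP1-FLAG and 185 ± 14.0 CPM in LV-NC (SD, n = 3 each). Of 14 fusion, fission and cristae genes none was called, with a median of 0.03, and 3 were higher and 1 lower at an unadjusted p under 0.05. CHCHD3, a subunit of the cristae junction complex, came closest at 0.13 ± 0.05 (edgeR adjusted p 0.0681).

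In the stress relay list 2 of 10 genes rose, 20.0% called beside 16.1% of all tested genes. All 10 fold changes were above 0, from 0.01 to 0.22, with a median of 0.06. In the import list 15 of 18 and in the cytosolic list 14 of 19 were above 0, also with medians of 0.06. Elsewhere it was 4 of 10 inner membrane genes, 6 of 11 proteases, 7 of 12 co-chaperones and 8 of 14 fusion, fission and cristae genes. The share above 0 over all tested genes was not counted. In this relay OMA1 cleaves DELE1, which binds the kinase HRI, the product of EIF2AK1, and HRI raises translation of the factor ATF4. ATF4 mRNA had 513, 541 and 508 CPM in MUCP1-FLAG and 438, 465 and 439 CPM in LV-NC, and rose by 0.22 ± 0.04 (edgeR adjusted p 0.00176). All 3 MUCP1-FLAG libraries were above all 3 LV-NC libraries. EIF2AK1 rose by 0.14 ± 0.04 (edgeR adjusted p 0.0376), to 293 ± 3.97 CPM in MUCP1-FLAG against 267 ± 7.05 CPM in LV-NC (SD, n = 3 each). It was called in 7 of the 15 settings tried, and ATF4 in all 15. DELE1 had 0.11 ± 0.07 (edgeR adjusted p 0.334), and the ATF4 targets DDIT3, TRIB3 and CHAC1 had 0.05 ± 0.06, 0.05 ± 0.05 and 0.03 ± 0.08, none of them called.

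Of 18 import genes 1 rose, 5.56% called beside 16.1% of all tested genes, and the median was 0.06. TIMM21, a small subunit of the inner membrane translocase, had 15.1 ± 1.05 CPM in MUCP1-FLAG and 12.2 ± 0.638 CPM in LV-NC (SD, n = 3 each), and rose by 0.30 ± 0.10 (edgeR adjusted p 0.0327). It was called in 8 of the 15 settings tried. Of 19 cytosolic chaperones 2 rose, which is 10.5% called. The list holds 8 subunits of the TRiC chaperonin, the cytosolic counterpart of the HSPD1 barrel, of which 6 were not called and lay between −0.03 and 0.09. The 2 that rose were CCT2, at 0.15 ± 0.04 (edgeR adjusted p 0.0221), and TCP1, at 0.13 ± 0.04 (edgeR adjusted p 0.0488). The median of the cytosolic list was 0.06. Over the 15 settings tried, the edgeR, DESeq2 and limma adjusted p ran from 0.00815 to 0.109 for CCT2, which was called in 9, and from 0.0199 to 0.191 for TCP1, which was called in 4. When LV-NC replicate 2 or any one MUCP1-FLAG library was left out, ATF4 was the one gene of the 75 still called.

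**Figure D4:**
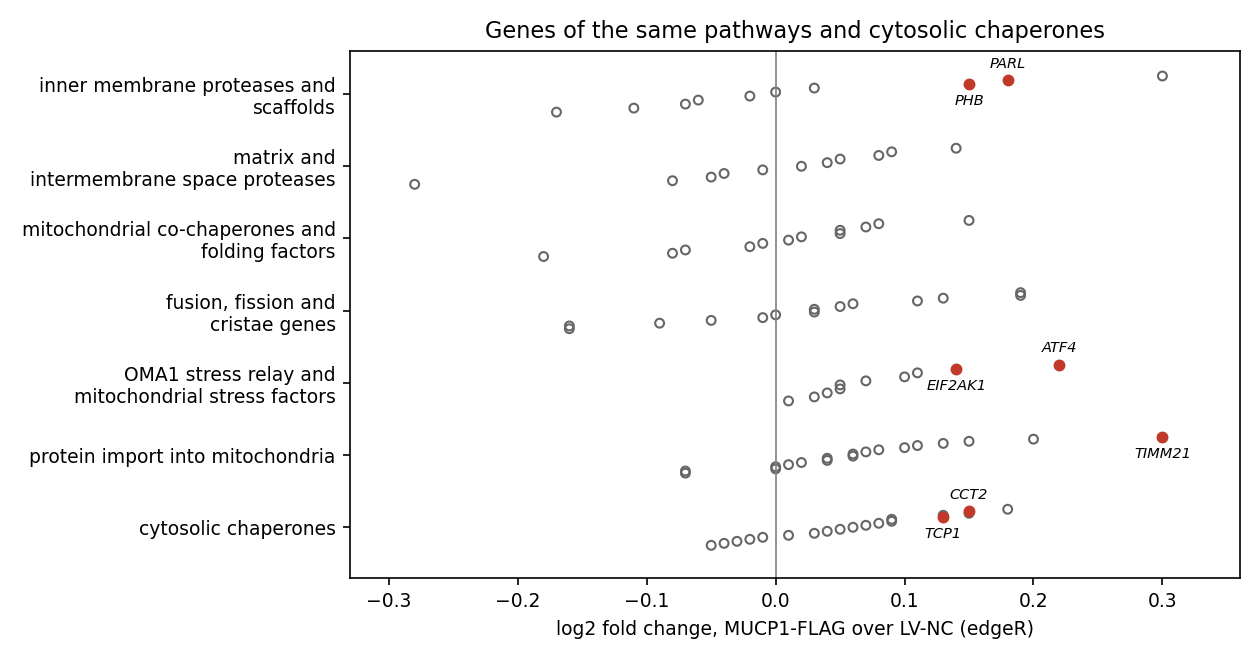
Log2 fold change of MUCP1-FLAG over LV-NC (x axis, edgeR) for each gene of the 6 mitochondrial lists and of the cytosolic chaperones (rows). Filled points are genes with an adjusted p under 0.05, and the largest value among them is that of TIMM21 at 0.30.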

How the data were processed

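Read counts per gene and FPKM values were deposited by the authors for 6 libraries in a table of 20289 genes. Per the submitters' processing notes, the build was GRCh38 and the tools included featureCounts, HISAT2, fastp and DESeq2, with no version or role given. Neither the labels nor the table state the gene length behind the FPKM. The log2 fold change, p-value and adjusted p-value of the authors' comparison were deposited in the same table, and of these the log2 fold change was used.

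Counts were tested with edgeR 4.0.16 in R 4.3.3 (TMM, filterByExpr with a minimum count of 10, robust quasi-likelihood F test, group as the one term, Benjamini-Hochberg over 12920 genes, threshold 0.05). Standard errors are the absolute fold change over the root of F. In simulated counts for this comparison over 12920 genes, 77% of 100 genes changed by 0.5 on the log2 scale and 91% of 100 changed by 1 were recovered. Of the unchanged genes 9 were called. The simulated dispersion followed the trend over all genes, without the scatter of single genes around it. Changes smaller than 0.5 were not simulated. FPKM were tested with limma 3.58.1 and counts with DESeq2 1.42.0 as alternatives. No p-value is given for the 10 genes.

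Named genes were the 10 genes, in each list up to 3 called genes by smallest adjusted p, or 1 by smallest p where none was called, and the 3 genes most like OMA1 with a mean of at least 10 CPM. PHB2, CLPX, TRAP1, DELE1, HSF1, the ATF4 targets and the genes with a heat shock pattern were added after their values were seen. The genes and lists were chosen with earlier results of these data known. PHB1 was matched as PHB through a gene name table. Counting errors cover counting only.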

Additional observations from a re-analysis of the deposited data

How the results depend on the processing

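OMA1 was lower in every alternative, between −0.67 and −0.56 when one library was left out, and was called in every one that used counts. Its difference was known when the genes were chosen, and each alternative reuses the same libraries. These repeated calls are therefore a description and no further support. On log2(FPKM + 1) and log2(FPKM + 0.1) limma called 514 and 516 genes higher and 544 and 549 lower, 0 of the 10 genes lower, and 1 gene of the wider mitochondrial lists higher. The cause was not tested. Without the low-count filter 1 of the 10 genes, LONP1, was higher. With library totals only, 2 genes of the wider lists were higher and 1, CLPB, lower. Of the 140 fold changes of the 10 genes under alternatives, 138 moved by less than 1 SD between replicates. The 2 fold changes that moved by more were those of OMA1 in FPKM.

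With the replicate block, 3 genes of the wider lists were higher and OMA1 alone of the 10 was called. Whether the numbers pair the libraries cannot be told from 3 libraries per group. Deviations of same-numbered libraries correlated at 0.059, 0.042 and −0.004. MUCP1-FLAG replicates 1 and 2 correlated best with their own number, and replicate 3 did not. When one library was left out, 639 to 1323 genes were higher and 624 to 1213 lower, 0 to 1 of the 10 genes were higher and 1 lower, and 1 to 6 genes of the wider lists were higher and 0 to 1 lower. Fewest were called without MUCP1-FLAG replicate 3; without LV-NC replicate 2, 671 genes were higher. The depth of OMA1, at most 215 counts, limits its precision.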

Other observations

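The length implied by count and FPKM together was nearly constant for some of the 10 genes and not for others. It was 3159 to 3160 bases for AFG3L2 and 555 to 556 bases for HSPE1 over the 6 libraries. For SPG7 it ran from 2425 to 2954 bases, with a coefficient of variation of 7.58%, and for YME1L1 from 3335 to 3596 bases, with 3.41%. The scarcest genes of the 10, OMA1 and SPG7, had the widest spread.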
